A study of Mus musculus with 16 samples.

Results

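Pericytes and vascular smooth muscle cells, together called mural cells, wrap the vessels of skeletal muscle, and 10 of their genes were followed in the mouse soleus during gradual hypoxia. The 10 genes were taken by name: Higd1b, Rgs5, Kcnj8, Abcc9, Cspg4, Pdgfrb, Notch3, Acta2, Tagln and Myh11. They are 10 of 20972 genes named on the array and 10 of 22126 features tested, each read by 1 probe that was well above background on all 16 arrays. The soleus is a postural hindlimb muscle rich in slow fibres. All RNA came from male mice and was hybridised to Agilent 1-colour arrays, on which the brightness of a spot reports the amount of its RNA. The groups were day 0 of the protocol (4 RNA samples), and days 3 (3 RNA samples), 7 (3 RNA samples) and 14 (4 RNA samples) after the oxygen level began to be reduced, which per the series' design text reached 10% in the first week and was then held. The labels name neither the strain nor the age of the mice, and give every group the treatment hypoxia, day 0 included. The series' design text gives 4 animals a time point, while days 3 and 7 have 3 RNA samples each here. The labels do not tie each RNA sample to its own mouse, so whether the RNA samples are from separate mice is not settled by them. P-values therefore measure the spread between these RNA samples, which may be technical in part.

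Pericytes sit within the basement membrane of capillaries, and smooth muscle cells form the contractile coat of arterioles and larger vessels. Endothelial platelet-derived growth factor B recruits mural cells through the receptor Pdgfrb, and Notch3 signalling helps keep them in a differentiated state. Pericytes carry an ATP-sensitive potassium channel made of the pore subunit encoded by Kcnj8 and the regulatory subunit encoded by Abcc9, which opens when cellular ATP is low. Smooth muscle cells are known by the actin and myosin of their contractile apparatus. Several of these genes have other sources in muscle: Abcc9 also serves the ATP-sensitive channel of muscle fibres, Pdgfrb is found in fibroblasts, Notch3 in satellite cells and Cspg4 in glia. In whole muscle, fewer cells of a type and less RNA per cell cannot be told apart.

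A value is the log2 intensity of the probe minus the log2 75th percentile of its array, and differences are later day minus earlier day on that log2 scale with the standard error (SE), fitted by limma with the slide as a term. The arrays lie on 2 slides. Slide 1 held the day 3 and day 7 RNA and day 0 replicates 1 and 2. Slide 2 held the day 14 RNA and all 4 day 0 replicates, so day 0 replicates 1 and 2 were hybridised on both slides. Slide 1 was brighter, with 75th percentiles of 203 to 271 against 49.1 to 77.0, and 22502 to 32782 spots per array were well above background. The 2 day 0 arrays of slide 1 stood apart. In a principal component analysis of 14788 features the leading component (35.5% of the variance) placed them at -39.3 and -42.2, the other arrays of slide 1 at -19.7 to 9.37, and the same RNA on slide 2 at -0.532 and 4.27. Each difference of day 3 or day 7 from day 0 leans on these 2 arrays, so it is also given with day 0 taken from slide 2 alone. That fit changes 2 things at once: it leaves out those 2 arrays and, since days 3 and 7 then lie on slide 1 and day 0 on slide 2, it has no slide term, so day and slide cannot be told apart in it. Its day 14 differences use the arrays of slide 2 as before and keep their size by construction. Of the slow-fibre genes, Myh7 and Tnnt1 read 10.22 to 10.81 and 10.19 to 10.73 over all arrays. The slow-fibre genes Tnni1 and Tnnc1 read 6.73 to 8.56 and 6.97 to 8.03. These levels go with a muscle that holds slow fibres, but no other muscle was compared.

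Few of the 10 genes moved past the threshold, an adjusted p under 0.05, and those that did went different ways. At day 3, 1 of 10 was higher (Higd1b) and 0 were lower, where 6.09% of all features passed and 2.27% passed as higher. At day 7, 2 of 10 were higher (Higd1b and Kcnj8) and 2 were lower (Acta2 and Myh11). Day 7 was the day with the most features past the threshold, 23.8% in all, 15.6% as higher and 8.14% as lower, and the members' 4 of 10 is read against that share. Without day 0 replicate 2, 0 of 10 passed at day 7, without day 0 replicate 1 or day 7 replicate 2 it was 2, and with day 0 from slide 2 alone 2 passed, Higd1b and Acta2. The calls over all features moved with them, from 5261 to 103, 2612 and 2620 without these RNA samples. At day 14, 1 of 10 was higher (Higd1b), where 0.402% of features passed and 0.294% passed as higher. The median difference of the 10 genes was -0.06 at day 3, -0.06 at day 7 and 0.21 at day 14, against medians of 0.06, 0.09 and 0.06 over all features. Positive differences were found in 4, 4 and 9 of the 10 genes. At day 14 the share of called features that were higher was 73.0%, and 50.9% after quantile normalization and 48.5% in the series' own value table, while Higd1b was called higher in all 3. A moderated F-test of all 3 days against day 0 passed for 2 genes, Higd1b (adjusted p = 0.00504) and Acta2 (adjusted p = 0.0168), while 17.1% of features passed it, and Kcnj8 missed it (adjusted p = 0.0713).

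Arrays of 1 slide can be set side by side as measured. On slide 1 the day 3 and day 0 arrays did not overlap for 2 of the 10 genes (Higd1b and Abcc9), against 43.1% of all features, and the day 7 and day 0 arrays did not overlap for 6 (Higd1b, Kcnj8, Abcc9, Cspg4, Acta2 and Myh11), against 55.1%. The first count is below that share and the second near it. On slide 2 the day 14 and day 0 arrays did not overlap for 1 gene (Higd1b), against 14.1%.

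**Figure D1:**
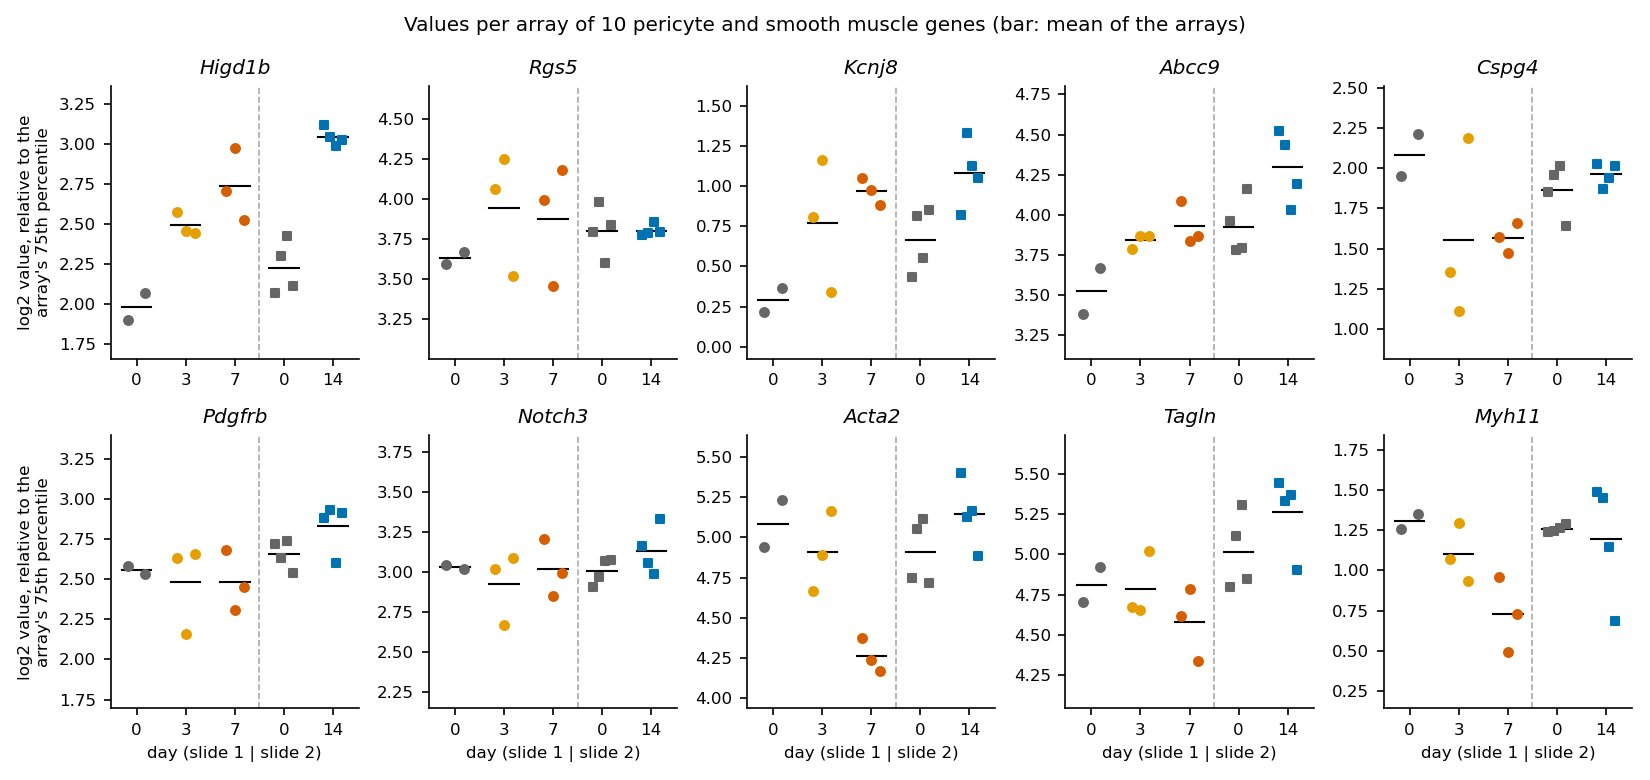
Log2 value of each gene on every array, relative to the array's 75th percentile, by day and slide (circles slide 1, squares slide 2, bars the mean of the arrays, each panel with its own vertical range of equal height). Higd1b is higher than day 0 at every later day, Acta2 is lowest in the 3 day 7 arrays at 4.17 to 4.37, and the day 3 arrays of Cspg4 spread from 1.11 to 2.19.

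Higd1b, which encodes a protein of the hypoxia inducible domain family and marks pericytes, rose at all 3 days. On slide 1 it read 1.90 and 2.07 in day 0 replicates 1 and 2, 2.57, 2.46 and 2.44 in day 3 replicates 1, 2 and 4, and 2.71, 2.97 and 2.52 in day 7 replicates 1, 2 and 4. On slide 2 it read 2.07, 2.30, 2.43 and 2.12 in the 4 day 0 replicates and 3.12, 3.04, 2.98 and 3.02 in the 4 day 14 replicates. Every later array was above every day 0 array of its slide, and the 4 day 14 arrays lay closest together (SD 0.06, n = 4). The rise was 0.49 ± 0.13 at day 3 (SE, n = 3 and 4, limma adjusted p = 0.0471), 0.73 ± 0.13 at day 7 (adjusted p = 0.00392) and 0.81 ± 0.11 at day 14 (n = 4 and 4, adjusted p = 0.0105), the last a 1.76-fold level. With day 0 taken from slide 2 alone the rises were 0.26 (adjusted p = 0.207), 0.51 (adjusted p = 0.0136) and 0.81 (adjusted p = 0.0218), so the day 3 call was lost and the day 7 call kept. The day 3 call was also lost in 11 of the 14 fits that left out 1 RNA sample. The day 7 call was lost without day 0 replicate 2 (adjusted p = 0.0669), and the day 14 call without day 0 replicate 1 (adjusted p = 0.0575) and with slide 2 fitted alone (adjusted p = 0.0800).

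Rgs5, a regulator of G protein signalling that is among the most used markers of mural cells, passed at no day. It read 3.59 and 3.67 on the day 0 arrays of slide 1, 4.07, 4.25 and 3.52 at day 3, and 3.99, 3.46 and 4.18 at day 7. The slide 2 arrays read 3.79, 3.98, 3.60 and 3.84 at day 0 and 3.78, 3.79, 3.85 and 3.79 at day 14. The day 3 and day 7 arrays each held 2 values above and 1 below both day 0 arrays, whereas the 4 day 14 arrays lay within the range of day 0. Its differences were 0.35 ± 0.21, 0.28 ± 0.21 and 0.00 ± 0.17 (adjusted p = 0.308, 0.351 and 0.999). The 95% interval at day 14 ran from -0.36 to 0.36. Of the relatives of both genes on the list, Higd1a, Higd2a, Rgs2, Rgs3, Rgs4 and Rgs16, only Rgs4 passed at a later day against day 0. Rgs4, another G protein signal regulator, rose by 0.58 ± 0.15 at day 7 (adjusted p = 0.0155) and by 0.90 ± 0.12 at day 14 (adjusted p = 0.0105), and kept the day 7 call with day 0 from slide 2 alone (0.47, adjusted p = 0.0318).

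Kcnj8 and Abcc9, the pore and the sulfonylurea receptor subunit of the vascular ATP-sensitive potassium channel, both read higher at every later day, and Kcnj8 passed at day 7. The genes are neighbours on chromosome 6. The bases before their starts are shown because the pair builds 1 channel and the differences of both had the same sign. The RefSeq table (GRCm38.p6) held a promoter window for 6 of the 10 genes, and 3 motifs were searched on both strands of the 300 bases from 250 before to 50 after the start: TGGGAA, the core read by Rbpj (the DNA-binding partner of Notch), ACGTG, the core read by hypoxia-inducible factors, and the CArG box read by serum response factor. Kcnj8 is at chr6:142571609-142571864 and Abcc9 at chr6:142702275-142702524, both on the minus strand. Each is printed 5′ to 3′ from 250 bases before the start to the base before it, for Kcnj8 to base 5 with the start base as 0, and capitals mark TGGGAA.
Kcnj8: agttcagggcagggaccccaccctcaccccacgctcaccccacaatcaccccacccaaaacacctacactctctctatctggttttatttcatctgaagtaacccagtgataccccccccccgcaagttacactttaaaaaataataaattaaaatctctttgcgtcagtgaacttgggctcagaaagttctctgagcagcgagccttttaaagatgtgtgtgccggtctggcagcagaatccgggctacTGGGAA
Abcc9: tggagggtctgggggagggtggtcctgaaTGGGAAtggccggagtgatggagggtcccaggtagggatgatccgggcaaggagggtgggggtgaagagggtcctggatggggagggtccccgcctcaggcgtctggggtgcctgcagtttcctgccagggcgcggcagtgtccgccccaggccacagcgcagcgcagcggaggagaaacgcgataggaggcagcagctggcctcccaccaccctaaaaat
TGGGAA was found in 3 of the 6 windows (Kcnj8 from base 0 to 5, Abcc9 from -221 to -216 and Acta2 from -27 to -22), as in 25.6% of 32851 promoters of the same length. ACGTG was found in 1, that of Notch3, as in 19.6%, and the CArG box in 0, as in 1.63%. The CArG box was searched in its exact consensus form only, and forms that differ from it by 1 letter were not searched. The 0 therefore does not mean that no such form is present. Read by eye, the Acta2 stretch printed below holds ccctatatgg and ccttgttTGG, each 1 letter from the exact form. The share of promoters with such forms was not counted. A match is a stretch of letters and not a measured site.

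Kcnj8 read 0.22 and 0.37 on the day 0 arrays of slide 1, 0.81, 1.16 and 0.34 at day 3, and 1.05, 0.97 and 0.88 at day 7. On slide 2 it read 0.43, 0.82, 0.55 and 0.85 at day 0 and 0.82, 1.33, 1.13 and 1.05 at day 14. All 3 day 7 arrays were above both day 0 arrays of their slide, day 3 replicate 4 lay between them, and day 14 replicate 1 lay within the day 0 range. Its difference was 0.46 ± 0.20 at day 3 (adjusted p = 0.177), it rose by 0.66 ± 0.20 at day 7 (1.58-fold, adjusted p = 0.0324), and the difference was 0.42 ± 0.16 at day 14 (adjusted p = 0.178). With day 0 from slide 2 alone the day 7 difference was 0.31 (adjusted p = 0.266) and the call was lost, as it was without the slide as a term (0.44, adjusted p = 0.0991) and without day 7 replicate 1 or 2 or day 0 replicate 1 or 2 (adjusted p = 0.0837 to 0.160). Without day 3 replicate 4 the day 3 difference was 0.68 and passed (adjusted p = 0.0425).

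Abcc9 read 3.38 and 3.67 on the day 0 arrays of slide 1, 3.79, 3.87 and 3.87 at day 3, and 4.08, 3.84 and 3.87 at day 7. Slide 2 gave 3.96, 3.78, 3.79 and 4.16 at day 0 and 4.52, 4.44, 4.03 and 4.19 at day 14. All day 3 and day 7 arrays were above the 2 day 0 arrays of slide 1, and the day 14 arrays overlapped those of day 0 in 1 value. No difference passed: 0.29 ± 0.17, 0.38 ± 0.17 and 0.37 ± 0.13 (adjusted p = 0.291, 0.113 and 0.149). With day 0 from slide 2 alone the day 3 and day 7 differences were -0.08 and 0.01. The other channel subunits on the list are Kcnj11, the pore of the channel of muscle fibres and, with Abcc8, of secretory and nerve cells. Kcnj11 fell by 1.06 ± 0.25 at day 7 (adjusted p = 0.00985), but with day 0 from slide 2 alone its difference was 0.72 (adjusted p = 0.0417) and with no slide term 0.06, so its direction rests on how the slide is treated. Abcc8 passed at no day.

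The surface proteins gave no call. Cspg4, the proteoglycan NG2 of pericytes, read 1.95 and 2.21 on the day 0 arrays of slide 1, 1.36, 1.11 and 2.19 at day 3, and 1.57, 1.47 and 1.66 at day 7. On slide 2 it read 1.85, 1.96, 2.02 and 1.64 at day 0 and 2.02, 1.87, 1.94 and 2.02 at day 14. The 3 day 7 arrays and day 3 replicates 1 and 2 were below both day 0 arrays of slide 1, and day 3 replicate 4 lay just below the higher one. Its differences were -0.51 ± 0.23, -0.50 ± 0.23 and 0.10 ± 0.18 (adjusted p = 0.177, 0.129 and 0.803). Without day 3 replicate 4 the day 3 and day 7 differences were -0.83 (adjusted p = 0.0153) and -0.50 (adjusted p = 0.0143), past the threshold, though the day 7 difference kept its size. With every RNA sample kept and array weights they passed too (-0.71 and -0.51, adjusted p = 0.00215 and 0.00775). With day 0 from slide 2 alone they were -0.31 and -0.30 (adjusted p = 0.390 and 0.324). Day 3 replicate 4 held the lowest day 3 value of Higd1b, Rgs5, Kcnj8 and Myh11, and the highest of Abcc9, Cspg4, Pdgfrb, Notch3, Acta2 and Tagln.

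Pdgfrb, the receptor for platelet-derived growth factor B, read 2.58 and 2.53 on the day 0 arrays of slide 1, 2.63, 2.16 and 2.66 at day 3, and 2.68, 2.31 and 2.45 at day 7. The slide 2 arrays read 2.72, 2.63, 2.73 and 2.54 at day 0 and 2.88, 2.93, 2.60 and 2.92 at day 14, where replicate 3 was the low one. The days overlapped on both slides, and the differences were -0.06 ± 0.16, -0.07 ± 0.16 and 0.18 ± 0.13 (adjusted p = 0.837, 0.802 and 0.445). At day 7 the 95% interval ran from -0.40 to 0.27. Notch3, the Notch receptor of mural cells, read 3.05 and 3.02 on the day 0 arrays of slide 1, 3.02, 2.67 and 3.09 at day 3, and 3.21, 2.85 and 2.99 at day 7. Slide 2 gave 2.90, 2.97, 3.07 and 3.07 at day 0 and 3.17, 3.06, 2.98 and 3.33 at day 14. Here too the days overlapped, and the differences were -0.14 ± 0.14, -0.05 ± 0.14 and 0.13 ± 0.11 (adjusted p = 0.594, 0.848 and 0.549).

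Acta2, the smooth muscle actin, fell at day 7, and its difference from day 0 at day 14 did not pass. Its probe is printed 10 times on each array, with an SD over those spots of 0.02 to 0.10. It read 4.94 and 5.23 on the day 0 arrays of slide 1, 4.67, 4.89 and 5.17 at day 3, and 4.37, 4.24 and 4.17 at day 7. On slide 2 it read 4.75, 5.05, 5.11 and 4.71 at day 0 and 5.40, 5.13, 5.17 and 4.89 at day 14. The 3 day 7 arrays were below all other 13 arrays, those of both slides, and 3 of the 4 day 14 arrays were above every day 0 array of slide 2. The difference was -0.18 ± 0.17 at day 3 (adjusted p = 0.553), the fall at day 7 was to 0.563 of the day 0 level (log2 difference -0.83 ± 0.17, n = 3 and 4, limma adjusted p = 0.00616), and the difference at day 14 was 0.24 ± 0.14 (adjusted p = 0.352). The day 7 call was kept with day 0 from slide 2 alone (-0.65, adjusted p = 0.0141), with slide 1 fitted alone (-0.83, adjusted p = 0.0428) and with no slide term (-0.71, adjusted p = 0.00901). It was lost without day 0 replicate 2 (-0.73, adjusted p = 0.0923).

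The Acta2 stretch before the start (GRCm38.p6, chr19:34255374-34255623, minus strand), is printed in the same way, with TGGGAA in capitals, because of the 10 genes Acta2 had the largest fall.
Acta2: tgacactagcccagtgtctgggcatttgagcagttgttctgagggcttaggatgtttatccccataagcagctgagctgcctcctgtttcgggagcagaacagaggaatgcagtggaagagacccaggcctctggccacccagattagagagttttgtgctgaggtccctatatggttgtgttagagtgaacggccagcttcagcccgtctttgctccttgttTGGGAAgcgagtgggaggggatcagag
Skeletal muscle actin, Acta1, is close to Acta2 in its coding sequence, and its difference at day 7 was -0.22 ± 0.10 (adjusted p = 0.134). The sequence of the Acta2 probe was not used here, and whether it also takes up Acta1 RNA was not tested.

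The other contractile genes had smaller negative differences at day 7, and 1 of them passed. Myh11, the smooth muscle myosin heavy chain, read 1.26 and 1.35 on the day 0 arrays of slide 1, 1.07, 1.30 and 0.93 at day 3, and 0.96, 0.49 and 0.73 at day 7. The slide 2 arrays read 1.24, 1.25, 1.27 and 1.29 at day 0 and 1.49, 1.45, 1.15 and 0.68 at day 14. Its day 7 arrays were all below the day 0 arrays, and its day 14 arrays spread to both sides of them. It fell by 0.59 ± 0.20 at day 7 (adjusted p = 0.0492), and the differences at days 3 and 14 were -0.21 ± 0.20 and -0.07 ± 0.16 (adjusted p = 0.549 and 0.852). The day 7 call lay close to the threshold. It was lost with day 0 from slide 2 alone (-0.53, adjusted p = 0.0589), with the replicate number as a block (-0.57, adjusted p = 0.0556) and in 9 of 14 fits that left out 1 RNA sample. Tagln, the actin-binding protein SM22, read 4.70 and 4.92 on the day 0 arrays of slide 1, 4.67, 4.66 and 5.02 at day 3, and 4.62, 4.78 and 4.34 at day 7. Slide 2 gave 4.79, 5.11, 5.31 and 4.85 at day 0 and 5.45, 5.33, 5.37 and 4.90 at day 14. Its days overlapped, and its differences were -0.06 ± 0.19, -0.26 ± 0.19 and 0.25 ± 0.15 (adjusted p = 0.890, 0.361 and 0.383).

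**Figure D2:**
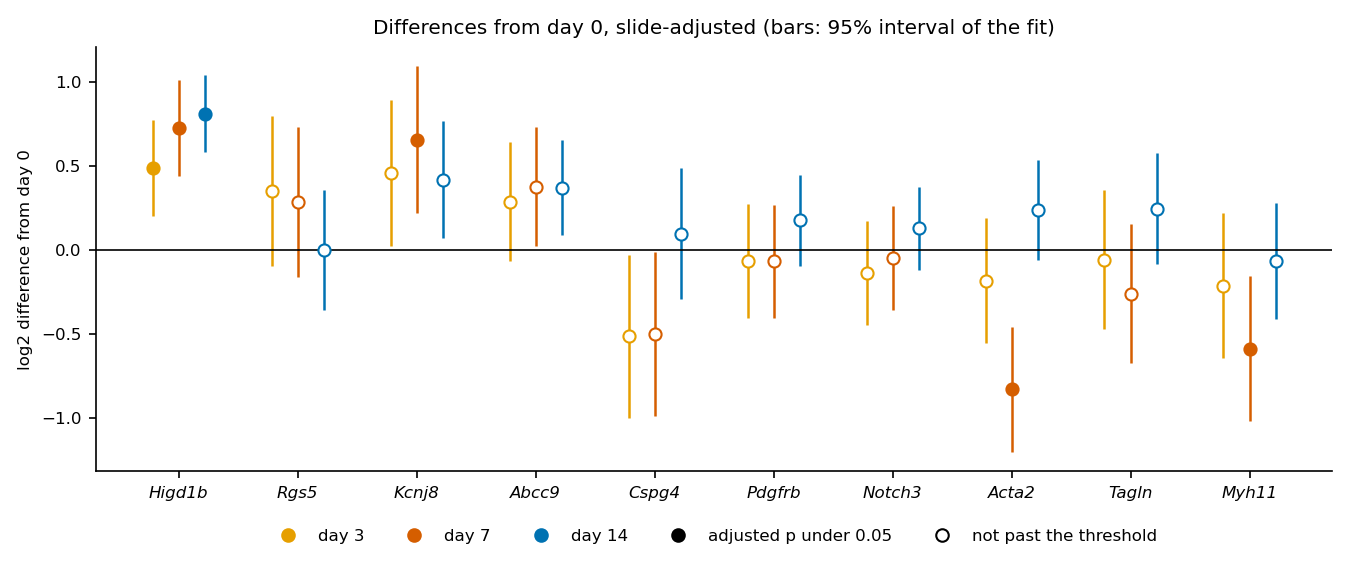
Log2 differences from day 0 of the 10 genes at days 3, 7 and 14 with the slide as a term, with 95% intervals of the fit (filled points past an adjusted p of 0.05). Higd1b is filled at all 3 days, Kcnj8 only at day 7 above 0, and Acta2 and Myh11 only at day 7 below 0.

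Days 3 and 7 lie on 1 slide and need no day 0 array. Between them 0 of 10 genes passed by limma, where 0.678% of features did. An unadjusted p under 0.05 was found for 1 of 10, Acta2, and for 15.0% of all features, so this count is no larger than that share. Acta2 differed by -0.65 ± 0.16 (n = 3 and 3, limma unadjusted p = 0.0013, adjusted p = 0.0856). Acta2 was also the 1 gene whose day 3 and day 7 arrays did not overlap, against 17.2% of features. With probe intensities corrected by normexp, with probes kept only if above background on every array, and with array weights, Acta2 passed in this comparison.

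Day 14 against day 7 spans the slides and is joined through the day 0 RNA. In it 1 of 10 genes passed, Acta2 as higher, where 2.30% of features passed and 1.12% passed as higher. Acta2 rose by 1.07 ± 0.20 (2.10-fold, n = 4 and 3, adjusted p = 0.0226). With day 0 from slide 2 alone and no slide term the difference was 0.88 (adjusted p = 0.00248), the same size as with all day 0 arrays and no slide term. Fits with no slide term set slide 2 against slide 1 here, so day and slide cannot be told apart in them. With the slide as a term the call was lost without day 7 replicate 1 or 2 or day 0 replicate 1 or 2 (adjusted p = 0.0542 to 0.216). Cspg4, Myh11 and Tagln had differences of 0.60 ± 0.26, 0.52 ± 0.23 and 0.51 ± 0.22 (adjusted p = 0.206, 0.211 and 0.205), and without the slide as a term Tagln passed (0.68, adjusted p = 0.0239). Higd1b differed by 0.08 ± 0.15 between these days, with a 95% interval from -0.25 to 0.42, and by 0.31 with no slide term (adjusted p = 0.142).

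**Figure D3:**
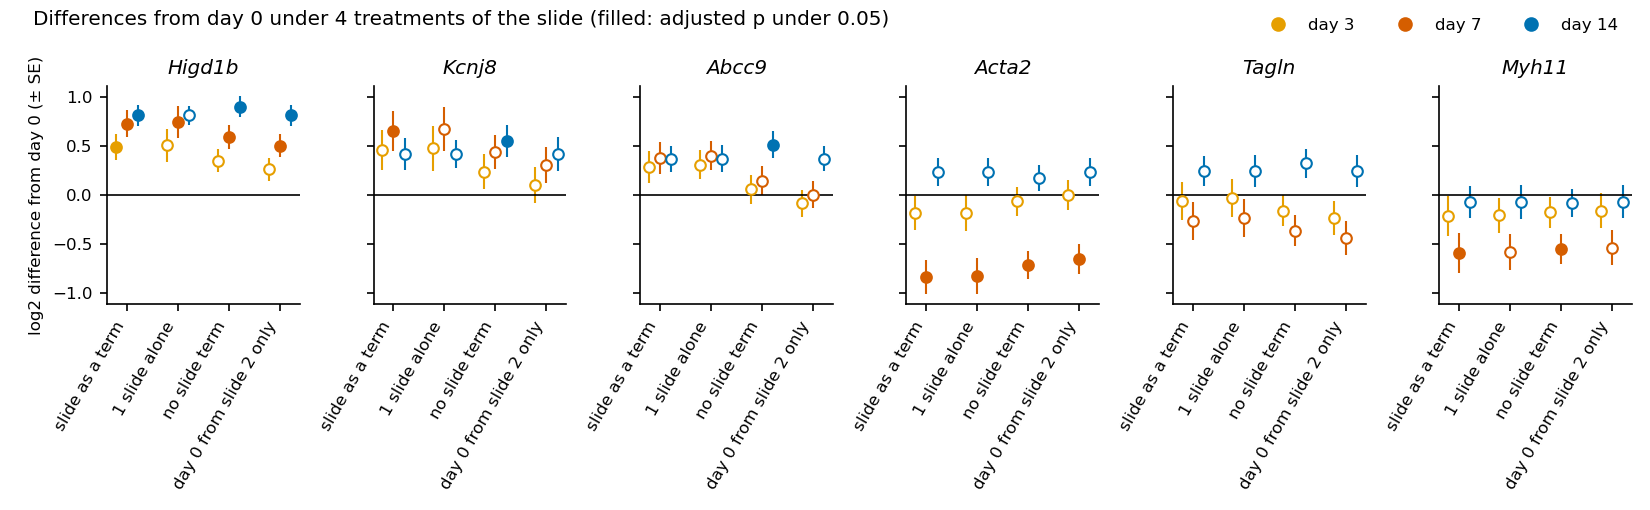
Log2 difference from day 0 (± SE) of 6 genes under 4 treatments of the slide: as a term, each slide fitted alone, no slide term, and day 0 from slide 2 only. Acta2 at day 7 stays between -0.65 and -0.83 and filled, whereas Kcnj8 at day 7 goes from 0.66 to 0.31 and Abcc9 from 0.38 to 0.01 with day 0 from slide 2 only.

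The patterns of the genes were also set side by side over the 14 RNA samples, with slide-adjusted values, as a description without a test. The days and the scaling of each array are shared by all points. The highest correlations among the 10 genes were 0.86 for Pdgfrb with Notch3, 0.84 for Acta2 with Tagln and 0.74 for Acta2 with Myh11. Rgs5 ran against Cspg4 (-0.74), and Higd1b was near 0 with Rgs5 (0.02). Over 10374 named genes, the 5 most like Higd1b were Kcnq1ot1 (0.93), Papss2 (0.92), Plxnd1 (0.92), Sox7 (0.92) and Zfp933 (0.92), of which Plxnd1 and Sox7 are known from endothelial cells. Those most like Acta2 were Metrnl (0.91), Acsl5 (0.89), Bst2 (0.89), Bak1 (0.88) and Myl6 (0.87), the last an essential light chain of smooth muscle and non-muscle myosin, and Tagln stood 20th. Those most like Rgs5 were Acadsb (0.94), Znrf2 (0.93), Tmem64 (0.92), Pds5b (0.92) and Tas1r3 (0.89).

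Among 32 measured genes of a list of 33 other pericyte and mural cell genes, 5 rose and 4 fell at day 7, with a median difference of 0.18. Art3, an ADP-ribosyltransferase family gene, rose by 1.15 ± 0.22 (adjusted p = 0.00473), and Gucy1a1 and Gucy1b1, the subunits of the soluble guanylate cyclase through which nitric oxide relaxes mural cells, by 0.83 ± 0.19 (adjusted p = 0.00918) and 0.58 ± 0.16 (adjusted p = 0.0226). Rgs4 and P2ry14 (0.87 ± 0.26, adjusted p = 0.0291) were the others that rose. Among those that fell, desmin (Des), an intermediate filament that muscle fibres also make, fell by 1.02 ± 0.19, the connexin gene Gja4 by 0.63 ± 0.15 and the cytochrome oxidase subunit gene Cox4i2 by 0.54 ± 0.15. With day 0 from slide 2 alone 3 of these 9 calls were kept, Art3 (0.63), Gucy1b1 and Rgs4, and none of the 4 falls passed. At day 3, Cd248 (endosialin, 1.07 ± 0.28) and the caldesmon gene Cald1 (0.65 ± 0.17) rose and Des, Gja4 and Cox4i2 fell by 0.76 ± 0.19, 0.63 ± 0.15 and 0.70 ± 0.15, of which 0 were kept with day 0 from slide 2 alone. At day 14 1 rose, Rgs4.

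Among 33 measured genes of a list of 34 other smooth muscle contractile genes and regulators, 2 rose and 7 fell at day 7, with a median of -0.11. Synm, a partner of desmin, rose by 0.91 ± 0.11 (adjusted p = 0.00156), and Mrtfa, a coactivator of serum response factor, by 0.86 ± 0.21 (adjusted p = 0.0110). Synpo2, an actin-binding protein gene, fell to 0.435 of its day 0 level (adjusted p = 0.00846), and Casq2, a calcium store protein that slow fibres share, by 0.99 ± 0.19 (adjusted p = 0.00437), beside Des, Actn1, Ppp1r14a, Sncg and Tpm2. Synm, Synpo2 and Casq2 kept their calls with day 0 from slide 2 alone (0.84, -1.06 and -0.63), and the other 6 did not. Among the genes of this list that did not pass at day 7 were the myosin light chain Myl9 (0.05 ± 0.15), calponin Cnn1 (-0.39 ± 0.28), the light chain kinase Mylk (-0.06 ± 0.13) and smoothelin Smtn (-0.11 ± 0.12). They were picked after their values were seen, and the 7 that fell are contractile genes or regulators of the same list. At day 3 the amine oxidase gene Aoc3 (0.95 ± 0.24, adjusted p = 0.0374) and Synm (0.42 ± 0.11, adjusted p = 0.0449) rose, both kept in that fit, and Des fell. At day 14 0 of 33 passed by limma.

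The signals that reach mural cells were mixed. Of 11 genes of platelet-derived growth factor signalling, 3 rose and 1 fell at day 7: the adaptors and regulators Grb2 (0.46 ± 0.10), Ptpn11 (0.45 ± 0.14) and Rasa1 (0.94 ± 0.28) rose and the receptor partner Lrp1 fell by 0.75 ± 0.21, and 0 of these 4 calls were kept with day 0 from slide 2 alone, where Grb2 turned sign. The ligand gene Pdgfb had 0.06 ± 0.28. Of 16 measured Notch genes, 3 rose and 2 fell at day 7. Rbpj rose by 0.94 ± 0.15 (adjusted p = 0.00241), the target Hes1 by 1.06 ± 0.24 (adjusted p = 0.00801) and the glycosyltransferase gene Mfng by 0.63 ± 0.11 (adjusted p = 0.00353), and Rbpj and Hes1 kept the call with day 0 from slide 2 alone (0.41 and 0.75). The receptor Notch4 fell by 0.66 ± 0.14 at day 7 (adjusted p = 0.00595) and Lfng, which was above background on 6 arrays, all of slide 1, was called lower (-1.27 ± 0.32, adjusted p = 0.0141), neither kept in that fit. Lfng turned sign there and with no slide term. Of 4 angiopoietin genes, Angpt1 (1.07 ± 0.21, adjusted p = 0.00497) and Angpt2 (0.95 ± 0.25, adjusted p = 0.0152), ligands of the receptor Tie2, rose at day 7 and Tie1 fell by 0.95 ± 0.18, and Angpt2 alone kept its call with day 0 from slide 2 alone (0.92, adjusted p = 0.0143), where Tie1 turned sign. Of 15 genes of transforming growth factor signalling, Tgfb2 (0.50 ± 0.14) and Tgfbr3 (0.57 ± 0.16) rose, and Tgfb1 and Eng fell by 1.62 ± 0.32 and 1.05 ± 0.16, with Tgfb2 and Eng kept. Of 7 measured of 12 listed calcium and potassium channels, 3 rose at day 7, among them Itpr1, the calcium release channel (1.26 ± 0.15, adjusted p = 0.00148), and Kcnma1 (0.44 ± 0.14, adjusted p = 0.0393), and 2 calls were kept with day 0 from slide 2 alone, that of Itpr1 (0.75) included. With the mean over its probes Kcnma1 turned sign. Between days 3 and 7 no gene of these lists passed, and between days 7 and 14 Gja4 (0.84 ± 0.18) and Notch4 (0.94 ± 0.16) rose and Synm, Rbpj and Itpr1 fell by 0.62 ± 0.13, 0.80 ± 0.17 and 0.96 ± 0.18. With no slide term the calls of Notch4 (0.46, adjusted p = 0.0943), Rbpj (-0.27, adjusted p = 0.290) and Itpr1 (-0.45, adjusted p = 0.105) were lost, and those of Gja4 (0.49) and Synm (-0.55) kept. With day 0 from slide 2 alone these differences had the same size by construction. Neither fit has a slide term, day 14 lies on slide 2 and day 7 on slide 1. Day and slide cannot be told apart in either fit, so the second is no separate check. In that second fit Notch4 (adjusted p = 0.0210), Itpr1 (adjusted p = 0.0372), Gja4 and Synm passed and Rbpj did not (adjusted p = 0.127). Lfng also passed between days 7 and 14, but it was above background on 0 of the 8 arrays of slide 2 and turned sign with no slide term, so no direction is given for it. These lists were read by counts only, beside 23.8% of features past the threshold at day 7.

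**Figure D4:**
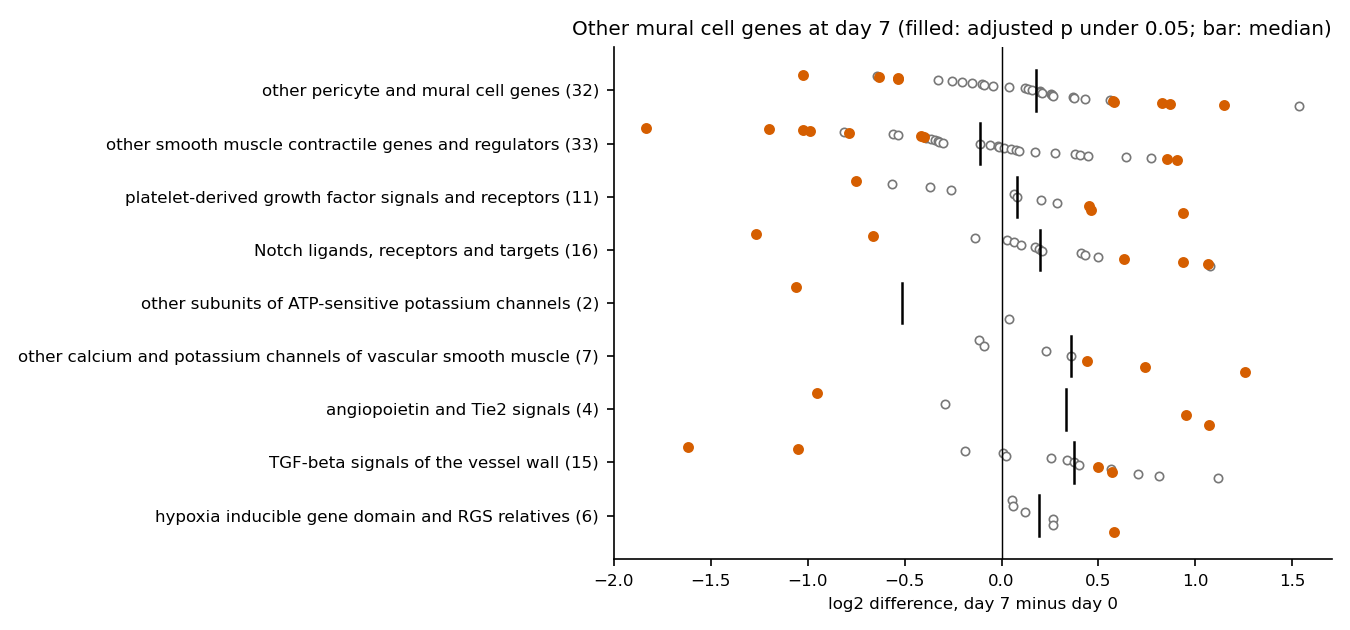
Log2 difference, day 7 minus day 0, of each measured gene in 9 lists of mural cell genes and signals (filled points past an adjusted p of 0.05, vertical bars the list median, number measured in brackets). Calls lie on both sides of 0 in 6 of the 9 lists, and the list medians run from -0.51 to 0.37.

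Markers of other cells in the muscle were counted over the same days. Of all features, 6.09% passed the threshold at day 3, 23.8% at day 7 and 0.402% at day 14. The counts of each day are read against that day's share. The summed level of 24 endothelial markers, slide-adjusted, was 8.07 to 8.14 at day 0, 8.20 to 8.32 at day 3, 8.37 to 8.61 at day 7 and 8.32 to 8.55 at day 14, with 5 markers called higher and 4 lower at day 7. At day 14 2 of 24 endothelial markers rose, and 4 of 5 measured red blood cell markers rose, with a summed level of 11.1 to 11.8 against 9.59 to 10.2 at day 0. At day 7, when Acta2 and Myh11 fell, 4 of 8 measured macrophage markers fell and 0 rose (summed level 3.74 to 3.92 against 4.27 to 4.76), 4 of 13 muscle fibre markers fell and 0 rose (13.3 to 13.4 against 13.2 to 13.3), and 3 of 17 fibroblast markers rose and 1 fell (9.66 to 10.3 against 9.24 to 10.2). At day 3, 4 of 17 fibroblast markers rose. Of 11 tendon and sheath markers 1 fell at day 14, with no slide term 6, and the list's median difference was -1.14 with 1 of 11 positive (summed level 5.86 to 6.72 against 6.14 to 7.37 at day 0). Of 10 Schwann cell and nerve markers 1 fell at day 7, of 6 measured satellite cell markers 1 fell at day 7, and of 5 measured adipocyte markers 0 passed at any day against day 0. With day 0 from slide 2 alone, the calls kept at day 7 were 2 of 9 endothelial, 1 of 4 macrophage and 0 of 4 muscle fibre. Also at day 7, 2 of 4 fibroblast and 0 of 1 Schwann cell calls were kept. In the same fit 0 of 4 fibroblast calls were kept at day 3. At day 14 it kept 1 of 2 endothelial, 4 of 4 red blood cell and 0 of 1 tendon calls. Their part in the values of the 10 genes was not tested.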

How the data were processed

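The deposited files are the scanner output of 16 Agilent 1-colour arrays, whose intensity values (gProcessedSignal) were background-subtracted by Feature Extraction 11.0.1.1, per the file headers; the array design names the mouse build mm9. Each intensity was set on a log2 scale against the 75th percentile of its array. Spots of a probe were averaged without outlier-marked spots, probes well above background on at least 3 arrays were kept (29459 of 55681), and a gene was read by its brightest probe on average, giving 22126 features. limma 3.58.1 (R 4.3.3, statmod 1.5.0) modelled day and slide, with repeat arrays of an RNA sample joined as a random block (correlation 0.448), and Benjamini-Hochberg adjustment covered the 22126 features. The fit was tested on simulated data. The number of arrays limits the precision.

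The 10 genes and the gene lists were chosen with earlier results of these data known. Named list genes are those past the threshold, up to 3 per list, comparison and direction by the smallest p, and genes most like Higd1b, Rgs5 and Acta2 are the 5 with the highest Pearson correlation over the RNA samples. Further called genes named to account for a count (Gucy1b1, P2ry14, Cox4i2 at day 7, Actn1, Ppp1r14a, Sncg, Tpm2), and Myl9, Cnn1, Mylk, Smtn, Pdgfb and Acta1, taken for their role, were chosen after their values were seen. Alternatives covered the slide, background correction, scaling, filters, probes, replicate block, array weights and left-out RNA samples. Some list genes that passed are counted but not reported by name here.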

Additional observations from a re-analysis of the deposited data

Results flagged for a closer look

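The lowest of the 4 day 14 values of Pdgfrb, that of replicate 3, lay far from the others: it read 2.60 against 2.88 for the next, a gap of 0.844 of the whole range of the 4 arrays, above Dixon's 95% critical value for 4 samples. Gaps were examined in 20 groups of 4 arrays, and chance gives such a gap in about 1 group in 20.

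The difference of Acta2 from day 0 was not the same at days 7 and 14. The day 14 difference exceeded the day 7 difference by 1.07 ± 0.20 (SE, limma adjusted p = 0.0226), and all 4 day 14 arrays read above all 3 day 7 arrays.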

How the results depend on the processing

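No called difference of the 10 genes changed sign under any of the alternatives run. Of 1380 values of the 10 genes under the alternatives, 22 gained and 47 lost a call, 39 others moved by more than 1 SE, and 1272 did neither; 53 changed sign, none of them a called value. Of 10 genes, 1 passed at day 3, and 0 passed with no slide term, with slide 1 alone, without the day 0 arrays of slide 1, with no filter, with the mean over probes and with only the groups compared, and 5 passed with array weights. At day 7 4 passed, against 2 with slide 1 alone, without the day 0 arrays of slide 1 and with no filter, and 7 with array weights. At day 14 1 passed, against 3 with no slide term and 0 with slide 2 alone. Between days 3 and 7 0 passed, against 1 with normexp and with a filter for signal above background on every array and 2 with array weights. Between days 7 and 14 1 passed, against 2 with no slide term, without the day 0 arrays of slide 1 and with array weights. In the F-test 2 passed, against 4 with no slide term and 6 with array weights. Leaving out 1 RNA sample gave 0 to 2, 0 to 5, 0 to 1, 0 to 2 (day 14 against day 7) and 1 to 4 (F-test) genes. At day 7 the count was 0 without day 0 replicate 2, 2 without day 0 replicate 1 or day 7 replicate 2, and 5 without day 3 replicate 4. Without day 0 replicate 1 or 2 the correlation of the full fit was used because it could not be estimated. The cause of these changes was not tested.

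Over all features the counts moved more: at day 3 1348, at day 7 5261, at day 14 89, between days 3 and 7 150 and between days 7 and 14 508, against 260, 3283, 3101, 62 and 2578 with no slide term, 6682, 9522, 563, 8734 and 3700 with array weights, 3491, 7133, 23, 730 and 4157 with normexp, and 10 to 1711, 103 to 5802, 3 to 219, 28 to 270 and 4 to 1209 without 1 RNA sample. Of features called at day 7, 65.7% were higher, against 42.7% without the day 0 arrays of slide 1 and without the slide term, which that alternative drops throughout. With normexp the higher share moved from 37.3% to 47.4% at day 3 and from 48.6% to 33.8% between days 7 and 14. With the replicate block 1, 3, 1, 0 and 1 of the 10 genes passed and 2 in the F-test, Myh11 at day 7 being lost, and the calls over all features were 1339, 5025, 21, 44 and 1145. Of the pairs with the same replicate number, 6 of 19 correlated above 0.1, and 7 of 14 RNA samples were best matched by their own number. Whether RNA samples with the same number share more than the number was not tested.

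Some list genes turned direction. Without the day 0 arrays of slide 1 the differences were 0.22 for Des and 0.18 for Tie1 at day 3, 0.18 for Tie1, -0.0012 for Grb2, 0.72 for Kcnj11 and 0.97 for Lfng at day 7, and -0.63 for Lfng between days 7 and 14. With no slide term they were 0.062 for Kcnj11 and 0.14 for Lfng at day 7 and -0.63 for Lfng between days 7 and 14. With the mean over probes they were -0.27 for Grb2 and -0.091 for Kcnma1 at day 7.

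Normexp used the median spot signals, chosen after seeing the files. A slide fitted alone gives no day 14 against day 7 value and no F-test, and only the 2 groups compared could not be fitted for that contrast, since slide and day coincide. Lfng, Actn1 and other dim probes near background have imprecise differences.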
